A study of Mus musculus with 34 samples.

Results

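Solute carriers are the membrane proteins that move amino acids, sugars, metals, phosphate, nucleotides and other small solutes across the plasma membrane and across the membranes of organelles. In macrophages they feed biosynthesis during activation, and metal carriers of the phagosome and the plasma membrane take part in the contest with microbes for iron, zinc, copper and manganese. Lipopolysaccharide (LPS) is the bacterial ligand of TLR4, IL-10 is a cytokine that restrains macrophage activation through STAT3, and IL-6 uses the same STAT through another receptor.

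The genes described here are those whose symbol in the probe table begins with Slc and a digit, apart from Slc2a1, Slc2a3, Slc16a3, Slc7a2, Slc30a1 and Slc40a1. The array held 147 such genes, and 105 of them had a probe set with a signal of 200 or more on at least 2 arrays. For a gene with several probe sets, the brightest on average stands for it, and 8224 probe sets were tested in all. The name decided membership: Slc4a1ap, Slc9a3r1 and Slc9a3r2 encode adaptor or scaffold proteins and not carriers, and Slc3a1 and Slc3a2 encode the heavy chains that partner the Slc7 light chains. Just inside the limit on signal lay Slc3a1, with a mean of 79.6 and a highest signal of 267, Slc22a6 (83.9 and 281) and Slc5a11 (86.2 and 280), and just outside it lay Slc34a1 (126 and 220), Slc25a47 (95.5 and 244) and Slc22a21 (94.2 and 152).

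Mouse macrophages were grown from bone marrow for 7 days and profiled on 34 oligonucleotide arrays, of which 32 could be placed in 16 groups. IL-10-/-, IL-6-/- and wild-type (WT) cells were stimulated for 45 or 180 min with 100 ng/ml LPS, either with 10 ng/ml IL-10, with 2 ng/ml IL-6 (45 min), or alone. Each of these groups had 2 arrays, apart from IL-6-/- cells with LPS alone, which had 1 array at each time. The 4 resting arrays came from cells taken before stimulation, and no genotype is labelled for them. Of the 18 arrays titled with IL-10 or IL-6, 14 have a treatment protocol that names LPS without a cytokine; the 4 that name it are WT with IL-10 at 180 min and WT with IL-6 at 45 min. Groups follow the titles, so each comparison with IL-10 or IL-6 rests on them. The titles call the arrays biological replicates, but nothing says how many mice they came from, so a p-value here reflects array-to-array spread, which may be technical.

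Resting and stimulated cells also differ in their labelled source of CSF-1, which was L-cell conditioned medium for the resting cells and mCSF for all stimulated cells. Stimulation and medium cannot be told apart in any comparison with resting cells. The 8 macrophage markers measured, among them Csf1r, Cd14 and Cd68, each averaged over 200 in all 16 groups. In WT cells with LPS against resting cells, 1 of them was called higher and 1 lower at 45 min. At 180 min 1 was called higher and 3 lower. The 6 stromal markers (Col1a1, Col1a2, Col3a1, Lox, Fn1 and Sparc) summed to between 7261 and 8680 on the WT LPS arrays and between 760 and 2224 on the resting arrays, and 6 of 6 were higher at both times. Of 5 neutrophil markers tested, 0 were called higher and 2 lower at each time. Over all probe sets, 16.7% were called at 45 min and 33.8% at 180 min. The part of these markers in the differences from resting cells was not tested. Resting replicate 4 stood apart, correlating with the other resting arrays at 0.863 to 0.885 over the tested probe sets, whereas stimulated replicates correlated at 0.932 or more. In bulk RNA, fewer cells of a type and less RNA per cell cannot be told apart.

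The signal limit that chose these genes also set the level counted next, so these counts do not show how many carriers the cells expressed. Of the 105, 58 had a group mean of 200 or more in all 16 groups, 42 in some groups, and 5 in no group. The largest resting signals belonged to Slc6a6, the taurine transporter, at 9835 ± 1731 (SD, n = 4), and to Slc3a2, at 4168 ± 1155. Next came Slc9a3r1, a scaffold of the actin cortex, at 3921 ± 885, Slc11a1, the phagosomal metal carrier NRAMP1, at 2918 ± 558, and Slc25a4, an ADP/ATP carrier of mitochondria, at 2753 ± 315. Signals of different probe sets are not comparable with each other, so this order describes signal and not transcript abundance. On the scale of signal plus 50, the highest group mean was a median of 2.41 times the lowest, with 25 genes above 3 times and 66 above 2. The widest spreads were those of Slc20a1 (9.83 times), Slc27a1 (8.02), Slc7a7 (7.11) and Slc7a11 (6.21). In 64 of the 105 genes no comparison among the 15 made here passed the test. These counts of signal, of spread and of calls were not made over all probe sets, so they do not set the members against the array.

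Promoter windows of RefSeq (build GRCm38.p6, 250 bases before to 50 after an annotated start) were found for 88 of the 105 genes, with 131 starts among them. They were searched on both strands for 5 motif cores, and matches are shown in capitals below for 4 genes on which the results turn and for Slc7a11, which carries a known pair of amino acid response elements. The windows are read 5′ to 3′ on the strand of the gene.
Slc20a1, the phosphate importer that rose at 45 min, chr2:129198523-129198822, plus strand: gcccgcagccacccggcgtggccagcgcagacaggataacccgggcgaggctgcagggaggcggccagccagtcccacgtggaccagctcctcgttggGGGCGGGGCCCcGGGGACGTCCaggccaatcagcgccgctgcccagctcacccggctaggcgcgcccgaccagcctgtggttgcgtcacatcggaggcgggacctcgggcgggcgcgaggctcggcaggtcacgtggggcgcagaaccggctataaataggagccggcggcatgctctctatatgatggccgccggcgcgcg
Slc7a7, the amino acid exchanger that differed in time and genotype, chr14:54417895-54418194, minus strand: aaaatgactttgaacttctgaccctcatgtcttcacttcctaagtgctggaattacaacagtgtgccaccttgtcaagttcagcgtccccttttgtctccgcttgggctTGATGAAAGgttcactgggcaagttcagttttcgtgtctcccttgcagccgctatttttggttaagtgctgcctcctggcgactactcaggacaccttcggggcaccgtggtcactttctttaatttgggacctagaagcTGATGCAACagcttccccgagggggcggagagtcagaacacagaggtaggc
Slc7a11, the cystine importer, chr3:50443564-50443863, minus strand: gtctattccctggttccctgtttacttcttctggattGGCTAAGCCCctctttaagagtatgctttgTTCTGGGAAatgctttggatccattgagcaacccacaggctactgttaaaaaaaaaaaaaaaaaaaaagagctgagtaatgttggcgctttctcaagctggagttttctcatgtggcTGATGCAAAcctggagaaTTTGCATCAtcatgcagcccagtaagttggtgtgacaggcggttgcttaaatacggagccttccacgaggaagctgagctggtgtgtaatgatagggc
Slc12a7, which was higher with IL-10, chr13:73763410-73763709, plus strand: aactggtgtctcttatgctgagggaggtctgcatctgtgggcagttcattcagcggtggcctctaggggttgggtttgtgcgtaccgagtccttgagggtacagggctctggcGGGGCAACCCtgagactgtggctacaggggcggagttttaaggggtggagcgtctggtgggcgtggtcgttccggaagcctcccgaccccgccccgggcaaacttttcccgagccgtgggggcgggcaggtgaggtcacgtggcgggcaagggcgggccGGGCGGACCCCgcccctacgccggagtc
Slc9a3r1, which was higher with IL-10 in IL-10-/- cells, chr11:115163091-115163390, plus strand: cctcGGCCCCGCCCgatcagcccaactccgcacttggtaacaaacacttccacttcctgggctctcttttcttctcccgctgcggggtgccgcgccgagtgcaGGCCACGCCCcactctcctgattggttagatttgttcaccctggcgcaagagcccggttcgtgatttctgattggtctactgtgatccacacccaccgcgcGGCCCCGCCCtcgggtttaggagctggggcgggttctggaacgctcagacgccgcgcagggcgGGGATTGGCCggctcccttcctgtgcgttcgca

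The amino acid response core TGATGNAAN, bound by ATF4, lay in 4.58% of the members' windows and in 3.95% of all 32851 windows. It was matched at 2 places in the Slc7a7 window shown and at 2 places, on opposite strands, in the Slc7a11 window. The loose NF-kappaB pattern, GGG and CC with any 5 bases between, gave the capital runs that begin with GG and end with CC, and it lay in 67.9% of the members' windows and 50.8% of all. The run TTCTGGGAA in Slc7a11 is a match of TTCNNNGAA, the STAT pattern, found in 2.29% of the members' windows and 8.3% of all. The antioxidant response core TGACNNNGC lay in 16% and 12.4%, and the cyclic AMP response element TGACGTCA in 1.53% and 1.79%. Neither the Slc12a7 window nor the Slc9a3r1 window shown held TTCNNNGAA. Only the first listed start of a gene is shown, and Slc7a7 had 5 starts, Slc20a1 2 and Slc12a7 2. Windows not shown held NF-kappaB matches for each of these genes, including Slc7a7, whose window shown held none. The window of Slc20a1 not shown also held an antioxidant response match. A match is a run of letters and was not tied to the signals by any test.

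After 45 min of LPS, 13 of the 105 genes differed from resting cells in WT macrophages, 7 higher and 6 lower (limma, adjusted p under 0.05). After quantile normalization the split was 6 higher and 9 lower, and over all probe sets it was 764 higher and 718 lower. Without that normalization 16.7% of all probe sets were called, 9% higher and 7.75% lower. The share of members called, 12.4%, was below that of the array as a whole. The median log2 change was 0.09 for the members and 0.03 for all probe sets. Phosphate and zinc carriers and Slc3a2 were among the rises, and carriers of mitochondria, metals and amino acids among the falls.

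Slc20a1, which encodes the sodium-coupled phosphate importer PiT-1, had by far the largest change among the members. Its signal was 3338 and 3515 on the WT LPS arrays at 45 min, against 359, 293, 373 and 277 on the resting arrays. The groups did not overlap, and the log2 change was 3.22 ± 0.18 (SE; adjusted p = 1.32e-12, limma). The rise was brief: at 180 min the 2 WT LPS arrays read 549 and 422, a log2 change of -2.71 ± 0.21 from 45 min (adjusted p = 1.04e-09). Over all genotypes and cytokines, the signal lay between 304 and 757 (median 549) on the 11 arrays at 180 min and between 2034 and 3515 (median 2778) on the 17 arrays at 45 min. At 180 min the WT value was still above resting by 0.51 ± 0.18 on the log2 scale (adjusted p = 0.0308), a call lost without WT LPS 180 min replicate 1 (adjusted p = 0.32), without resting replicate 2 (0.0621) or without resting replicate 4 (0.066).

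**Figure D1:**
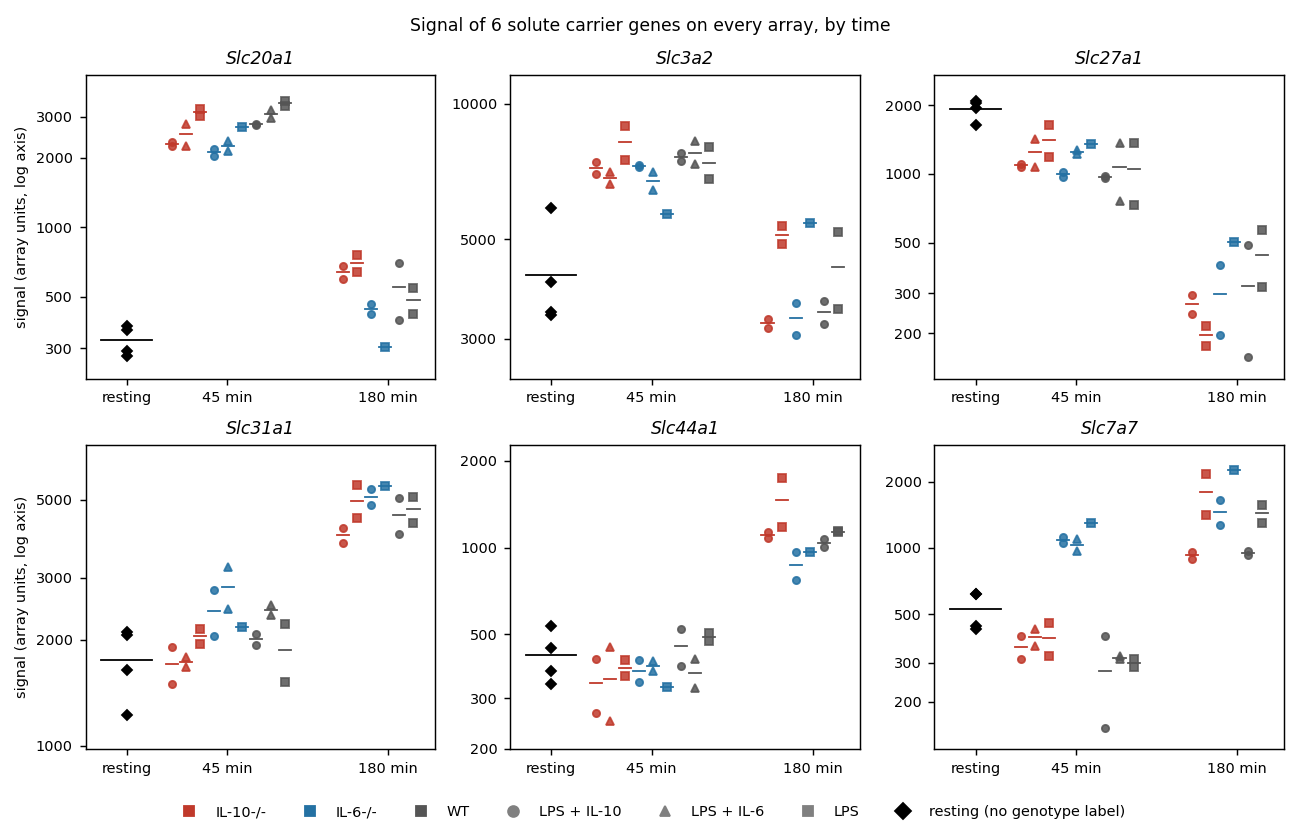
Signal (array units, log axis) of 6 solute carrier genes on every array, in resting cells and after 45 and 180 min, with the genotype as colour and the treatment as symbol; short lines are group means. Slc20a1 stood highest at 45 min, Slc3a2 was higher at 45 min than on every 180 min array, Slc27a1 was lowest at 180 min, Slc31a1 and Slc44a1 were above every 45 min array at 180 min, and Slc7a7 was already high at 45 min in IL-6-/- cells.

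Zinc carriers called higher at 45 min were Slc30a4, Slc39a6 and Slc30a3. Slc30a4 (ZnT4), which moves zinc out of the cytosol, read 455 and 615 on the WT LPS arrays at 45 min and 190, 228, 155 and 236 on the resting arrays, a log2 change of 1.21 ± 0.22 (adjusted p = 0.000302). At 180 min the WT LPS arrays read 715 and 1155, a log2 change from resting of 1.94 ± 0.22 (adjusted p = 1.3e-07). Slc39a6 (ZIP6), a zinc importer, rose by 1.02 ± 0.26 at 45 min (adjusted p = 0.00955) and 1.16 ± 0.26 at 180 min (adjusted p = 0.00127). Slc30a3 (ZnT3), best known from synaptic vesicles, averaged 2563 in WT LPS at 45 min and 1520 in resting cells (log2 change 0.74 ± 0.20, adjusted p = 0.0122), and at 180 min was called lower than at 45 min (-0.72 ± 0.23, adjusted p = 0.0341).

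Slc3a2, the heavy chain CD98 that carries Slc7a5, Slc7a7, Slc7a8 and Slc7a11 to the cell surface, read 6786 and 8002 at 45 min in WT cells with LPS. The resting arrays read 5848, 3380, 4010 and 3436, so the groups did not overlap (log2 change 0.85 ± 0.18, adjusted p = 0.00194). By 180 min the WT LPS arrays were at 3498 and 5172, within the resting range (log2 change 0.07 ± 0.18 from resting, adjusted p = 0.825). Its partner Slc7a5 (LAT1), an importer of large neutral amino acids, averaged 433 in resting cells, 557 at 45 min and 528 at 180 min, and neither difference from resting passed (adjusted p = 0.353 and 0.417). Slc1a5 (ASCT2), the glutamine carrier, and Slc29a1 (ENT1), the equilibrative nucleoside carrier, passed in none of the 15 comparisons. The largest changes for these 2 genes against resting were 0.15 ± 0.27 for Slc1a5 and -0.17 ± 0.30 for Slc29a1, both at 180 min.

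The other rises at 45 min were smaller in signal. Slc9a8 (NHE8), an endosomal sodium/proton exchanger, averaged 874 with LPS and 520 at rest (log2 change 0.70 ± 0.20, adjusted p = 0.0155). Slc10a6, a carrier of sulphated steroids, averaged 258 with LPS and 102 at rest (1.11 ± 0.38, adjusted p = 0.0473).

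Among the falls at 45 min, Slc38a10, a putative amino acid carrier, was at 680 and 620 on the WT LPS arrays, against 1784, 1369, 1248 and 1475 at rest (log2 change -1.11 ± 0.19, adjusted p = 0.000256). Slc11a1 (NRAMP1), which exports divalent metals from the phagosome, was at 1517 and 1769 with LPS, against 3654, 2368, 3015 and 2637 at rest (-0.80 ± 0.19, adjusted p = 0.00465). Both were lower on all 28 stimulated arrays than on every resting array, as were Slc27a1 and Slc39a3, whereas Slc30a4 and Slc25a17 were higher on all 28. Among all probe sets 7.25% separated stimulated from resting arrays in this way. Slc6a13, a GABA carrier (-1.19 ± 0.27, adjusted p = 0.00368), and 2 mitochondrial carriers fell as well: Slc25a11, the oxoglutarate carrier (-0.62 ± 0.21, adjusted p = 0.0439), and Slc25a39, a glutathione importer of mitochondria (-0.56 ± 0.18, adjusted p = 0.0329). Slc23a3, an orphan relative of the vitamin C carriers, was called lower at -0.99 (adjusted p = 0.047), but its second probe set read 0.69 in the opposite direction without passing (adjusted p = 0.107), so its direction is uncertain.

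Slc20a1, Slc30a4 and Slc38a10 passed in each of the 6 fits that left out 1 array of this comparison. Without WT LPS 45 min replicate 1, 7 members were called, and without WT LPS 45 min replicate 2, 5 members. Slc3a2 (adjusted p = 0.0555), Slc9a8 (0.189) and Slc6a13 (0.185) lost their call without replicate 2, Slc11a1 without replicate 1 (0.0834), and Slc39a6, Slc30a3, Slc10a6, Slc23a3, Slc25a11 and Slc25a39 without either. Slc10a6, Slc23a3, Slc25a11 and Slc25a39 were each also lost in 2 of the 4 fits without a resting array (adjusted p = 0.0501 to 0.12). Without resting replicate 4, 16 members were called, 8 higher and 8 lower, including all 13.

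After 180 min of LPS, 27 of the 105 genes differed from resting cells, 13 higher and 14 lower. Of the 27, 9 were also among the calls at 45 min, made against the same resting arrays. Calls shared by both times were not counted over all probe sets, so this overlap cannot be read as a trait of the members. After quantile normalization the members split into 16 higher and 12 lower, and all probe sets into 1284 higher and 1508 lower. Without that normalization the background was 33.8% of all probe sets, 14.4% higher and 19.4% lower, against 25.7% of the members. The median log2 change was -0.08 for the members and -0.09 for all probe sets. Carriers of metals made up 5 of the rises and 2 of the falls among 15 measured, and 17 genes of the Slc25 family gave 5 falls and 1 rise, that of the peroxisomal Slc25a17. The 13 genes grouped under inorganic ions, pH and phosphate gave 5 rises and 1 fall, and this group holds the scaffold genes Slc9a3r1 (a rise) and Slc9a3r2 (the fall) and the adaptor gene Slc4a1ap.

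**Figure D2:**
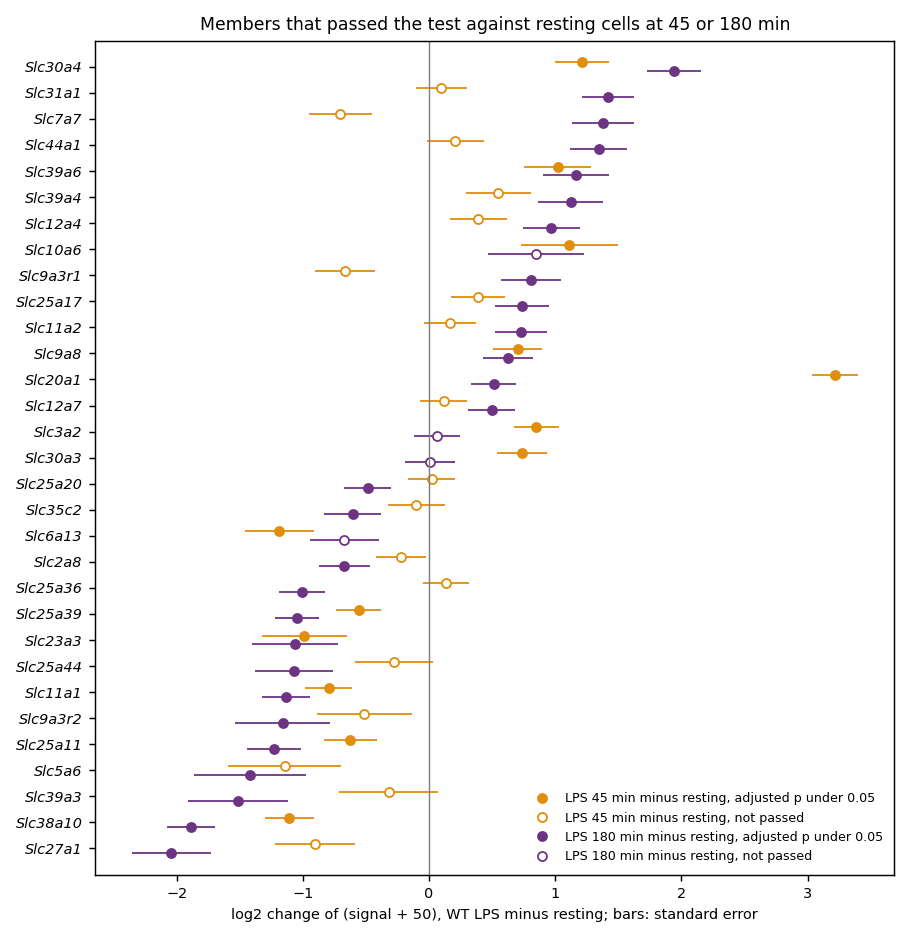
Log2 change of signal plus 50 in WT macrophages with LPS minus resting cells, at 45 min (orange) and 180 min (purple), for the 31 members called at either time; bars are standard errors and filled points passed the test. Slc20a1 at 45 min lies at 3.22, outside the range of all other points, and the metal carriers Slc30a4, Slc31a1, Slc39a6 and Slc39a4 are among the 6 highest at 180 min.

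Slc31a1 (CTR1), the high-affinity copper importer, had the second largest rise at 180 min. The WT LPS arrays read 5091 and 4295, against 2103, 1644, 2058 and 1224 at rest (log2 change 1.42 ± 0.20, adjusted p = 5.89e-06). At 45 min they had read 2222 and 1521, so the rise was late (0.10 ± 0.20 from resting at 45 min, adjusted p = 0.797). Every array at 180 min, whatever its genotype or cytokine, lay at 3764 or more (median 4837), and every array at 45 min at 3213 or less (median 2081). A second probe set of Slc31a1 gave 0.40 at 180 min in WT cells without passing (adjusted p = 0.135), and for 180 against 45 min gave 0.59 in WT cells, short of the threshold (adjusted p = 0.104), and 0.93 in IL-10-/- cells, which passed (adjusted p = 0.00656).

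Slc44a1, a choline carrier, was also called higher at 180 min. Its WT LPS signal was 1138 and 1132 at 180 min, against 336, 448, 532 and 373 at rest (log2 change 1.34 ± 0.23, adjusted p = 5.03e-05). Over all treatments, the 11 arrays at 180 min spanned 774 to 1746 and the 17 arrays at 45 min spanned 250 to 520, with no overlap. Slc31a1 and Slc44a1 were the 2 members above every 45 min array at 180 min, and 9 members lay below every one: Slc16a7, Slc20a1, Slc25a36, Slc25a39, Slc27a1, Slc35b2, Slc35c2, Slc3a2 and Slc6a8. Among all probe sets, 9.73% separated the times in this way. Slc16a7, Slc35c2 and Slc6a8 were named here after this separation was seen.

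Slc39a4 (ZIP4), a zinc importer known best from the intestine, averaged 2459 with LPS at 180 min and 1098 at rest (1.12 ± 0.26, adjusted p = 0.00133), but its second probe set read -0.35 (adjusted p = 0.432). Potassium-chloride cotransporters that rose were Slc12a4 (KCC1; 0.97 ± 0.23, adjusted p = 0.00157) and Slc12a7 (KCC4; 0.50 ± 0.19, adjusted p = 0.0413). Slc9a3r1 averaged 6775 with LPS and 3921 at rest (0.81 ± 0.24, adjusted p = 0.00994). Slc25a17, a carrier of the peroxisome, rose by 0.73 ± 0.21 (adjusted p = 0.00948).

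Slc27a1 (FATP1), a fatty acid transport protein, had the largest fall at 180 min. It read 321 and 566 on the WT LPS arrays, against 1938, 2097, 2043 and 1636 at rest (log2 change -2.04 ± 0.31, adjusted p = 1.59e-05). The 45 min arrays lay between. The resting arrays spanned 1636 to 2097 and, over all treatments, the 45 min arrays 732 to 1635 (median 1109) and the 180 min arrays 158 to 566 (median 294). No ranges overlapped, but the resting and 45 min ranges all but met. Against resting cells, Slc27a1 was not called in WT cells at 45 min. Slc38a10 read 374 and 341 with LPS at this time (-1.89 ± 0.19 from resting, adjusted p = 3.74e-08), and Slc11a1 read 1371 and 1202 (-1.14 ± 0.19, adjusted p = 3.93e-05).

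The mitochondrial falls at 180 min were led by Slc25a11, at 661 with LPS and 1634 at rest (-1.23 ± 0.21, adjusted p = 6.27e-05). Slc25a44, a carrier of branched-chain amino acids, averaged 106 with LPS and 290 at rest (-1.07 ± 0.31, adjusted p = 0.0092), with 2 resting arrays below 200. Slc25a39 and Slc25a36, a pyrimidine nucleotide carrier, were also lower, at -1.05 ± 0.18 (adjusted p = 5.49e-05) and -1.0 ± 0.18 (adjusted p = 0.000122). Low signals marked 3 other falls. Slc39a3 (ZIP3), a zinc importer, averaged 82.4 with LPS and 317 at rest (-1.51 ± 0.39, adjusted p = 0.00397, limma). Slc5a6, the biotin and pantothenate carrier, averaged 35.9 and 201 (-1.42 ± 0.44, adjusted p = 0.015, limma), and Slc9a3r2 59.9 and 204 (-1.16 ± 0.38, adjusted p = 0.0187, limma). Slc39a3 reached the signal limit of 200 on 7 arrays, Slc5a6 on 4 and Slc9a3r2 on 3. For Slc5a6 these included every resting array but replicate 3. The filter thus kept Slc5a6 largely through the group where it was high, and its call is not independent of the filter.

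Leaving out WT LPS 180 min replicate 1 reduced the count to 16, and without resting replicate 4 it was 28 with 24 of the 27 retained. Among the named genes, Slc30a4, Slc31a1, Slc7a7, Slc44a1, Slc39a6, Slc27a1, Slc38a10, Slc25a11 and Slc11a1 passed in all 6 such fits. Without WT LPS 180 min replicate 1 the calls lost were Slc39a4 (adjusted p = 0.0503), Slc12a4 (0.0564), Slc9a3r1 (0.0557), Slc39a3 (0.112), Slc5a6 (0.0726), Slc9a3r2 (0.169) and Slc25a44 (0.135). Slc9a3r1 and Slc5a6 were also lost without replicate 2 (0.0745 and 0.0927), as was Slc11a2 (0.0969), and Slc9a3r2 without resting replicate 1 (0.0508). When the probe sets of a gene were averaged, Slc39a4 was no longer called (adjusted p = 0.233).

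Comparisons within the stimulated cells rest on 1 labelled medium. Between 180 and 45 min of LPS, 12 members differed in WT cells, 4 higher and 8 lower. After quantile normalization these counts were 5 and 6, with 604 and 541 over all probe sets. In IL-10-/- cells 19 members differed without that normalization, 7 higher and 12 lower. The background was 13.9% of probe sets in WT (6.77% higher, 7.13% lower) and 17.1% in IL-10-/- cells (6.57% higher, 10.5% lower). Both genotypes called Slc7a7, Slc31a1 and Slc44a1 higher and Slc20a1, Slc27a1, Slc25a36, Slc38a10, Slc35b2 and Slc3a2 lower. These are 75.0% of the members called in WT cells and 47.4% of those called in IL-10-/- cells. The shared calls were not counted over all probe sets, so the overlap cannot be read as a trait of the members.

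Slc7a7 (y+LAT1) exchanges cationic for neutral amino acids as a partner of Slc3a2, and its loss in humans causes lysinuric protein intolerance. It had the largest rise with time in WT cells, reading 1573 and 1298 at 180 min and 288 and 312 at 45 min (log2 change 2.08 ± 0.29, adjusted p = 8.81e-06). IL-10-/- cells read 1417 and 2166 at 180 min and 324 and 457 at 45 min (2.05 ± 0.29, adjusted p = 1.14e-05). Against resting cells the WT value was 1.38 ± 0.25 higher at 180 min (adjusted p = 0.000106) and -0.70 ± 0.25 at 45 min, where it missed the threshold (adjusted p = 0.0523).

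IL-6-/- cells had a different course of Slc7a7. At 45 min their 5 arrays read 1304 with LPS, 1119 and 1054 with IL-10, and 966 and 1098 with IL-6. The 12 arrays of the other genotypes at 45 min spanned 152 to 457 (median 323), so the groups did not overlap, a separation found for this member alone and for 1.9% of probe sets. A comparison chosen after these values were seen, IL-6-/- minus WT over the LPS + IL-10 and LPS + IL-6 arrays at 45 min, gave a log2 difference of 1.74 ± 0.20 (adjusted p = 1.98e-05, limma) and 1.24% of probe sets called. Slc7a7 was the 1 member called, and leaving out each of the 8 arrays gave 1.45 to 2.02. The same contrast of IL-10-/- with WT gave 0.34 ± 0.20 (adjusted p = 0.93), with 0 members and 0.693% of probe sets called and 4 members at an unadjusted p under 0.05. The stromal marker sum was 5208 to 5629 on the IL-6-/- arrays of that contrast and 7456 to 8340 on the WT arrays, and its part in this difference was not tested.

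At 180 min Slc7a7 on the IL-6-/- arrays read 1648 and 1271 with IL-10 against 965 and 925 in WT cells with IL-10. That difference, 0.59 ± 0.29, did not pass (adjusted p = 0.659). For all 105 members, 0 calls were made between IL-6-/- and WT cells in this group by limma, with 0.182% of probe sets called and 7 members at an unadjusted p under 0.05.

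Slc9a3r1 also rose with time in WT cells, reading 6656 and 6895 at 180 min and 2307 and 2512 at 45 min (1.47 ± 0.27, adjusted p = 0.000428). In IL-10-/- cells the LPS arrays read 2016 and 3033 at 180 min and 2154 and 3637 at 45 min, so the times overlapped. The falls in WT cells beside Slc20a1 included Slc27a1 (-1.14 ± 0.36, adjusted p = 0.0367), Slc25a36 (-1.13 ± 0.21, adjusted p = 0.000428) and Slc25a15, the ornithine carrier (-0.85 ± 0.27, adjusted p = 0.038). Slc35b2, which brings the sulphate donor PAPS into the Golgi, averaged 1048 at 180 min and 1807 at 45 min (-0.76 ± 0.23, adjusted p = 0.029). Slc3a2 (-0.79 ± 0.21, adjusted p = 0.0115) and Slc38a10 (-0.78 ± 0.22, adjusted p = 0.0192) completed these falls with Slc30a3. Slc20a1, Slc25a36, Slc7a7, Slc9a3r1, Slc31a1 and Slc44a1 passed in the 4 fits without 1 array, and the count was 7 without WT LPS 180 min replicate 1. Slc25a15, Slc38a10, Slc35b2 and Slc30a3 lost their call in each of those fits (adjusted p = 0.0601 to 0.214), and Slc27a1 and Slc3a2 without WT LPS 180 min replicate 1 (0.332 and 0.229) or WT LPS 45 min replicate 2 (0.351 and 0.118).

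In IL-10-/- cells the largest rise with time was that of Slc7a11 (xCT), the light chain that imports cystine in exchange for glutamate. Its signal was 626 and 382 at 180 min and 33.7 and 48.8 at 45 min, a log2 change of 2.57 ± 0.40 (adjusted p = 4.26e-05). WT cells read 251 and 132 at 180 min and 107 and 193 at 45 min (0.26 ± 0.40, adjusted p = 0.754), and the difference between the genotypes in this change was not tested. IL-10-/- minus WT was 1.21 ± 0.40 at 180 min (adjusted p = 0.124), which was called with a pseudocount of 200 (0.84, adjusted p = 0.0354), and -1.10 ± 0.40 at 45 min (adjusted p = 0.423). In 12 of the 16 groups the mean was below 200, so most values lie near the low end of the scale.

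The other rises in IL-10-/- cells were Slc10a6 (448 at 180 min, 79.3 at 45 min; 1.92 ± 0.44, adjusted p = 0.00304), Slc44a1 (1.78 ± 0.26, adjusted p = 2.36e-05), Slc31a1 (1.25 ± 0.23, adjusted p = 0.000432) and Slc25a17 (0.84 ± 0.25, adjusted p = 0.0198). Slc25a3, the mitochondrial phosphate carrier, had a low signal of 358 and 58.9 at these times (1.91 ± 0.62, adjusted p = 0.0328). Slc27a1 fell most, to 177 and 217 at 180 min, against 1191 and 1635 at 45 min (-2.56 ± 0.36, adjusted p = 1.51e-05). Slc20a1 fell by 2.10 ± 0.21 on the log2 scale (adjusted p = 6.71e-08), Slc25a36 by 1.43 ± 0.21 (2.43e-05), and Slc25a28, the mitochondrial iron carrier mitoferrin 2, by 1.27 ± 0.26 (0.000893).

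Further falls in IL-10-/- cells touched carriers of amino acids and their relatives. Slc6a6 averaged 6792 at 180 min and 15055 at 45 min (-1.14 ± 0.30, adjusted p = 0.00914), while its second probe set gave -0.41 without passing (adjusted p = 0.59). Slc6a8, the creatine carrier, averaged 318 and 740 (-1.11 ± 0.28, adjusted p = 0.00727), Slc38a10 326 and 836 (-1.24 ± 0.22, adjusted p = 0.000272) and Slc3a2 5106 and 8209 (-0.68 ± 0.21, adjusted p = 0.0266). Slc35a1, which brings CMP-sialic acid into the Golgi, averaged 54.9 and 175 (-1.21 ± 0.36, adjusted p = 0.0196). Either IL-10-/- LPS 180 min array left out gave 12 calls. Slc25a3 lost its call in all 4 such fits, and Slc10a6, Slc6a6, Slc6a8, Slc3a2, Slc35a1 and Slc25a17 in 1 to 3 of them.

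With IL-10 added to LPS for 180 min, few of these genes were called, as were few of all probe sets. In IL-10-/- cells, which cannot make the cytokine, 3 members (2.86%) differed, Slc9a3r1 and Slc12a7 higher and Slc7a8 lower. Of all probe sets 3.54% were called. As the mean of the 3 genotypes, 6 members (5.71%) differed, 3 higher and 3 lower, with 3.82% of probe sets called. The median change of the members was -0.01 in the mean of genotypes, as it was for all probe sets.

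Slc12a7 (KCC4) is a potassium-chloride cotransporter of cell volume and chloride balance. With IL-10, IL-10-/- cells read 1051 and 1167, IL-6-/- cells 1006 and 1066, and WT cells 1137 and 1631. With LPS alone, IL-10-/- cells read 324 and 338, the IL-6-/- array 610, and WT cells 603 and 898. All 6 arrays with IL-10 were above all 5 without, and Slc7a8 was the 1 member whose arrays with IL-10 all lay below those without, where 2.49% of all probe sets were separated. The log2 change was 1.06 ± 0.13 over genotypes (adjusted p = 1.08e-05) and 1.60 ± 0.21 in IL-10-/- cells (adjusted p = 2.12e-05). It was 0.84 ± 0.21 in WT cells (adjusted p = 0.175) and 0.72 ± 0.26 in IL-6-/- cells (adjusted p = 0.46), and the difference of IL-10-/- from WT, 0.76 ± 0.30, did not pass (adjusted p = 0.566).

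Slc9a3r1 in IL-10-/- cells read 8318 and 10056 with IL-10 and 2016 and 3033 with LPS alone, a log2 change of 1.87 ± 0.27 (adjusted p = 6.21e-05). In WT cells it read 7805 and 10451 with IL-10 and 6656 and 6895 without (0.41 ± 0.27, adjusted p = 0.999), and in IL-6-/- cells 7949 and 11086 with IL-10 and 9621 without (-0.04 ± 0.33, adjusted p = 0.998). The difference in response between IL-10-/- and WT cells was 1.45 ± 0.39 and did not pass (adjusted p = 0.108). Over all genotypes the change was 0.75 ± 0.17 (adjusted p = 0.00929).

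**Figure D3:**
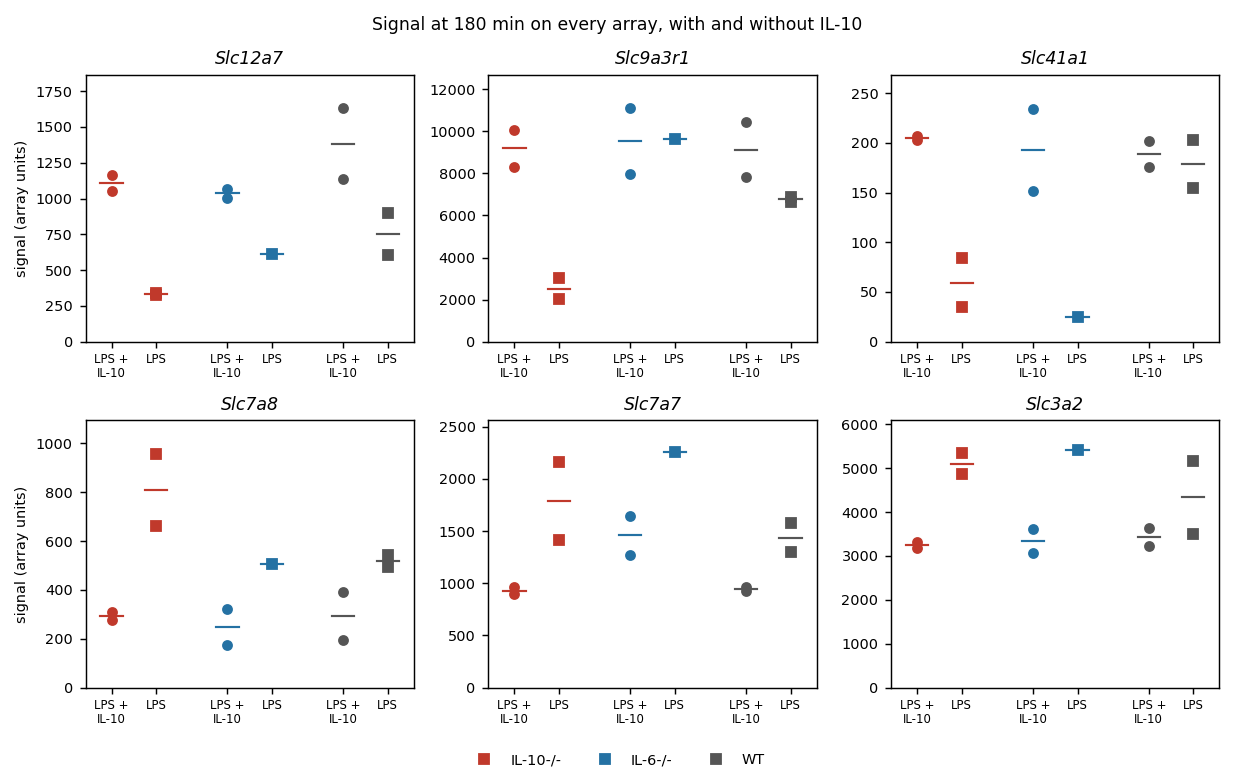
Signal (array units) at 180 min for the 6 members called in the mean of genotypes, with IL-10 (circles) left of LPS alone (squares) for each genotype; points are arrays and lines are means. Slc12a7 with IL-10 lies above every array without it, Slc7a8 below every array without it, and the low Slc9a3r1 values are those of IL-10-/- cells with LPS alone.

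The 3 falls with IL-10 over genotypes were those of Slc7a8, Slc7a7 and Slc3a2. Slc7a8 (LAT2), a light chain for neutral amino acids, read 277 and 308 in IL-10-/- cells with IL-10 and 660 and 956 without (-1.31 ± 0.34, adjusted p = 0.0281). Over genotypes its change was -1.01 ± 0.21 (adjusted p = 0.00458). Slc7a7 averaged 927 in IL-10-/-, 1460 in IL-6-/- and 945 in WT cells with IL-10, against 1792, 2260 and 1436 in the same genotypes without it (-0.69 ± 0.18 over genotypes, adjusted p = 0.0233). Slc3a2, their shared heavy chain, averaged 3246, 3333 and 3437 with IL-10 and 5106, 5420 and 4335 without, in that order of genotypes (-0.55 ± 0.13, adjusted p = 0.0132). The light chains Slc7a5 and Slc7a11 gave -0.01 ± 0.19 and -0.32 ± 0.25 in this comparison, both short of the threshold.

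Slc41a1, a magnesium carrier, was called higher over genotypes (1.00 ± 0.24, adjusted p = 0.0151) at a low signal. It averaged 205, 193 and 189 in IL-10-/-, IL-6-/- and WT cells with IL-10, and 59.5, 24.5 and 179 in the same genotypes without. The sum of the 7 neutrophil markers on the array was also higher with IL-10 at 180 min. It was 2143 to 2274 in IL-10-/- cells against 1148 to 1231 without. In IL-6-/- cells it was 3302 to 3704 against 1216, and in WT cells 1760 to 1793 against 1106 to 1140. Of the 7 markers, 5 were tested. S100a8 was called higher (1.91 ± 0.27 over genotypes, adjusted p = 4.04e-05, limma), and the other 4 tested did not pass. The part of these markers in the members' changes was not tested.

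Slc12a7 and Slc9a3r1 passed in all 4 fits that left out 1 array in IL-10-/- cells, and Slc7a8 in none of them (adjusted p = 0.0512 to 0.377). Over genotypes, Slc12a7, Slc9a3r1 and Slc7a8 passed in all 10 such fits. Slc7a7 lost its call in 5 of the 10 (0.0532 to 0.106), Slc41a1 without IL-10-/- LPS replicate 1 (0.0601) or IL-6-/- LPS + IL-10 replicate 2 (0.0547), and Slc3a2 without WT LPS replicate 2 (0.0611).

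Within single genotypes with their own IL-10 gene, 0 members were called with IL-10 at 180 min by limma, either in WT cells (0.134% of probe sets called, 9 members at an unadjusted p under 0.05) or in IL-6-/- cells (0.207%, 6 members), where the lone LPS array was assumed to vary like the other groups. The difference of the response between IL-10-/- and WT cells also gave 0 calls (0.559%, 5 members at an unadjusted p under 0.05). At 45 min, 0 members were called with IL-10 (1.03%, 8 members at an unadjusted p under 0.05) or with IL-6 (0.547%, 4 members) as the mean of genotypes. Slc20a1 at that time had -0.37 ± 0.13 with IL-10 and -0.24 ± 0.13 with IL-6, neither passing (adjusted p = 0.438 with IL-10 and 1.00 with IL-6). These results do not show that the cytokines left the other members unchanged.

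Between IL-10-/- and WT cells, 2 members were called. With LPS alone at 180 min, IL-10-/- cells were lower than WT in Slc9a3r1 (-1.44 ± 0.27, adjusted p = 0.00237) and Slc12a7 (-1.05 ± 0.21, adjusted p = 0.00476), where 2.87% of all probe sets were called. The arrays involved are those given above, so these values share the IL-10-/- LPS arrays with the IL-10 comparison. Both calls were lost without IL-10-/- LPS 180 min replicate 1 (adjusted p = 0.0869 and 0.0557), and Slc12a7 also without WT LPS 180 min replicate 2 (0.18). At 45 min with LPS, 0 members differed (0.377%, 6 at an unadjusted p under 0.05, limma). With IL-10 supplied at 180 min, 0 differed (0.219%, 4 at an unadjusted p under 0.05), and Slc9a3r1 then averaged 9187 in IL-10-/- and 9128 in WT cells.

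Slc11a2 (DMT1), the importer of ferrous iron and other divalent metals, is a case where the probe sets of a gene gave different sizes. On its probe set with the higher mean, WT LPS arrays read 1023 and 1184 at 180 min, against 751, 681, 685 and 486 at rest (0.73 ± 0.21, adjusted p = 0.00741). On the second probe set they read 1981 and 1708, against 152, 202, 260 and 64.6 at rest (3.20 ± 0.27, adjusted p = 1.43e-09). The direction was the same on both. From 45 to 180 min of LPS in WT cells, the second probe set rose by 2.71 ± 0.31 (adjusted p = 6.93e-07, limma). The probe set with the higher mean gave 0.56 without passing (adjusted p = 0.128).

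**Figure D4:**
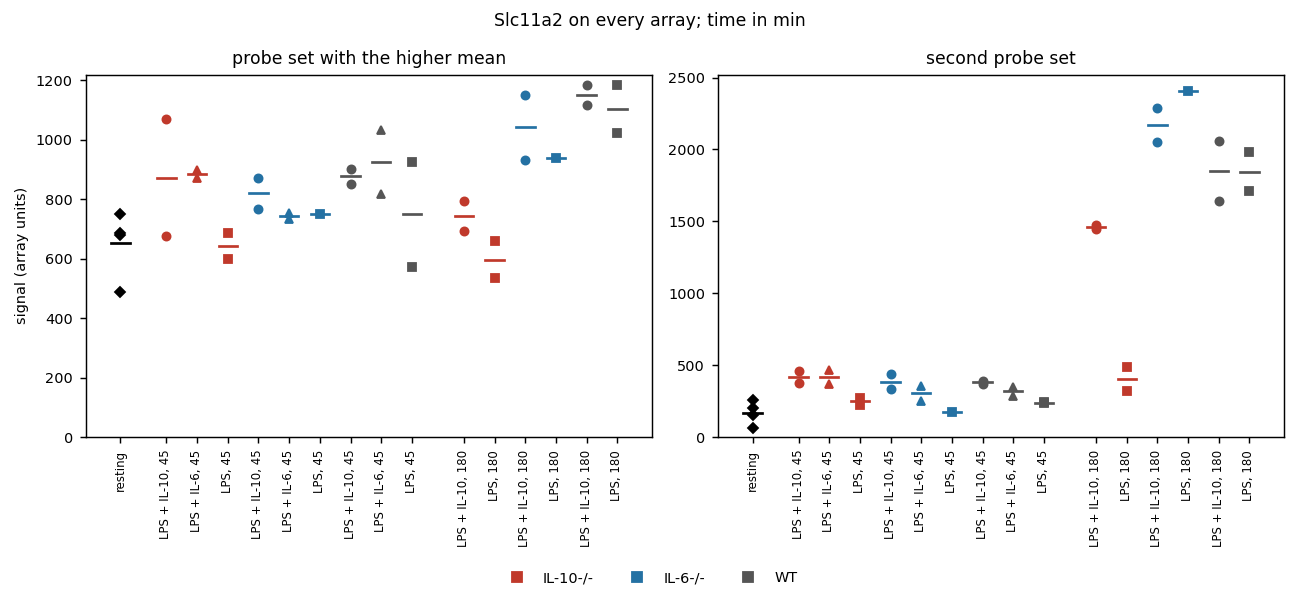
Signal (array units) of the 2 Slc11a2 probe sets on every array; colours are genotypes, diamonds resting cells, and lines group means. On the second probe set (right) the IL-10-/- arrays with LPS alone at 180 min, at 322 and 487, lie below the other arrays of that time, which start at 1448.

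The IL-10 comparisons also gave different sizes on the Slc11a2 probe sets. On the second probe set, IL-10-/- cells at 180 min read 1448 and 1472 with IL-10 and 322 and 487 without, a log2 change of 1.76 ± 0.31 (adjusted p = 0.000701). IL-10-/- cells with LPS alone differed from WT by -2.08 ± 0.31 (adjusted p = 0.000151). On the probe set with the higher mean the same comparisons gave 0.30 ± 0.24 (adjusted p = 0.882) and -0.84 ± 0.24 (adjusted p = 0.0566). With probe sets averaged, the IL-10 comparison was called (1.03, adjusted p = 0.00725). The comparison with WT was called in 5 alternative settings. On the second probe set, as for Slc9a3r1, IL-10-/- cells on LPS alone were the lowest of the 180 min groups. WT cells had 1849 with IL-10 and 1844 without on this probe set, and the difference in response between IL-10-/- and WT cells was 1.76 ± 0.44, which did not pass (adjusted p = 0.0804). The probe sets were not mapped to transcript forms here. Among 13 members with more than 1 probe set passing the signal limit, 2 probe sets of a gene were both called in only 2 cases, each time in the same direction. In 6 cases the probe set that stands for the gene was called and the other was not, and in 3 cases the reverse. The absence of opposite calls therefore says little about agreement between probe sets.

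Other transport genes and the stress programmes that control several carriers were counted for comparison. At 180 min of LPS against resting, 18 ABC transporters gave 2 rises and 6 falls, 8 ion-pumping ATPases 1 and 2, and 28 channels and aquaporins 4 and 2, where 14.4% of all probe sets were higher and 19.4% lower. Abca1, the cholesterol exporter, rose by 0.99 ± 0.18 (adjusted p = 0.000158) and was higher with IL-10 over genotypes (0.72 ± 0.13, adjusted p = 0.00108). Atp7a, which exports copper and moves it to the phagosome, was lower at 180 min (-1.83 ± 0.33, adjusted p = 0.000108, limma). The copper importer Slc31a1 changed in the opposite direction, but its second probe set did not pass (0.40, adjusted p = 0.135, limma). A link between these genes was not tested.

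Of 16 ATF4-linked genes 3 were higher at 45 min and 2 at 180 min, with none lower, where 9% of all probe sets were higher at 45 min and 14.4% at 180 min. The count at 180 min was no larger a share than that of all probe sets. Atf4 itself rose by 0.76 ± 0.15 at 45 min (adjusted p = 0.000888). Of 9 NRF2-linked genes 2 were higher at 45 min, and 3 were higher and 1 lower at 180 min (19.4% of all probe sets were lower then), with Txnrd1, thioredoxin reductase, at 2.22 ± 0.15 (adjusted p = 2.57e-11). Slc7a11, a target of both programmes, was at 0.13 ± 0.34 at 45 min (adjusted p = 0.843) and 0.39 ± 0.34 at 180 min (adjusted p = 0.419) in the same WT cells, both short of the threshold.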

How the data were processed

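The values are probe set intensities from 1-colour Affymetrix MG-U74Av2 arrays hybridised with biotin-labelled cRNA from total RNA, as deposited by the authors and made with MAS5 per the submitters' processing notes (version and settings are not given in the sources used here). Each array had a 2% trimmed mean of 500. Of 12488 probe sets, 66 controls were set aside, and the 8224 with a signal of 200 or more on at least 2 arrays were tested. The platform annotation gave 10855 probe sets 1 symbol and 396 several symbols, and 1237 were not listed. All 105 genes described matched RefSeq.

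From these values, log2(signal + 50) was fitted with limma 3.58.1 (R 4.3.3), with 1 mean for each of 16 groups over 32 arrays and an intensity trend, for 15 comparisons. P-values were two-sided and adjusted over all tested probe sets by Benjamini-Hochberg, and 0.05 was the threshold for a call. The pseudocount makes fold changes of low signals smaller. The fit was checked on simulated data. Figures were drawn with matplotlib 3.10.9 (Python 3.11.15).

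The genes named in a comparison were the 8 largest rises and 8 largest falls among those called, and a fixed set of well-known carriers. Slc12a7, Slc25a17, Slc25a36 and Slc25a39 at 180 min of LPS against resting were named beyond this rule, after their values were seen. Abca1, Atp7a, Atf4, Txnrd1 and S100a8 are not members and were also named beyond it, from lists of related genes and markers. The lists of related genes were meant for counts and medians only. The members and lists were chosen with earlier results of these data known. The comparison of IL-6-/- with WT cells at 45 min was added after the values were seen. Array groups come from the titles, among which 1 lacks a genotype and 1 disagrees with its treatment protocol on the time, so these arrays entered no group. Alternatives changed the pseudocount, the signal limit, the normalization, the trend, the handling of probe sets and the arrays fitted. The number of arrays, mostly 2 per group, limits the precision.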

Additional observations from a re-analysis of the deposited data

Results flagged for a closer look

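In 3 of the 105 genes, 1 of the 4 resting arrays stood far from the other resting arrays by Dixon's criterion, which chance alone meets in about 1 in 20 groups. Slc23a3 read 1651 on resting replicate 1 and 487 to 648 on the other resting arrays. Slc7a11 read 209 on resting replicate 4 and 105 to 114 on the others. Slc5a6 read 55 on resting replicate 3 and 239 to 262 on the others, and its lower signal at 180 min passed in the fit with all arrays.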

How the results depend on the processing

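No called log2 change of a named gene turned its sign when the pseudocount, signal limit, normalization, trend, block, probe set handling or arrays fitted were changed singly. Between IL-10-/- and WT cells with LPS at 180 min, 2 members were called, and 4 with a pseudocount of 200, 4 with the replicate block and 5 in a fit without resting arrays (0 to 2 when 1 array was left out, 0 without IL-10-/- LPS replicate 1 and 1 without WT LPS replicate 2). The fit without resting arrays also gave 6 calls with IL-10 at 180 min in IL-10-/- cells, against 3, and 1 call each, against 0, with IL-10 at 180 min in WT cells and in IL-6-/- cells, with IL-10 at 45 min over genotypes, and between IL-10-/- and WT cells with LPS at 45 min. Deviations of same-numbered samples correlated at 0.0204 to 0.441 (median 0.12), above 0.1 in 13 of 23 pairs of groups. Pairing was assumed only where all pairs exceeded 0.1, and no label says that the numbers pair the samples. With the replicate block there were 21 calls at 45 min of LPS, against 13, and 1, against 0, both for the difference in IL-10 response and for IL-10-/- against WT at 45 min, and Slc25a39 at 45 min of LPS was not called (adjusted p = 0.079). Leaving out 1 array gave 5 to 16 calls at 45 min of LPS, 16 to 28 at 180 min, 7 to 9 between the times in WT cells (12 with all arrays) and 12 to 16 in IL-10-/- cells (19 with all arrays). It gave 4 to 7 with IL-10 over genotypes (6), 2 to 2 in IL-10-/- cells (3), and 0 to 1 for the difference in response, where 1 was called without WT LPS + IL-10 180 min replicate 1. Under quantile normalization the median shift of a probe set's log2 change was 0.12 between the times in WT cells and 0.10 between IL-10-/- and WT cells at 45 min. The causes were not tested. Over the alternatives other than leaving out 1 array, there were 10 to 21 calls at 45 min of LPS and 24 to 30 at 180 min. Between the times there were 10 to 17 in WT cells and 18 to 27 in IL-10-/- cells, and with IL-10 over genotypes 5 to 9. With probe sets averaged, Slc23a3 at 45 min (adjusted p = 0.75) and Slc6a6 between the times in IL-10-/- cells (0.0676) lost their calls. Signals below about 200, as in Slc7a11, Slc5a6, Slc41a1, Slc39a3 and Slc9a3r2, carry the least information about size.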

Other observations

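Slc38a2 (SNAT2), a sodium-coupled importer of small neutral amino acids, had a wide spread of group means without a call in any of the 15 comparisons, and is named here after its values were seen. Its highest group mean was 5.38 times the lowest on the scale of signal plus 50. At 45 min it read 1498 and 1221 on the WT LPS arrays, against 137, 1139, 544 and 1058 on the resting arrays (log2 change 1.18 ± 0.44, adjusted p = 0.0652, limma). At 45 min over all treatments the signal lay between 568 and 2171 (median 1221), and at 180 min between 363 and 902 (median 540), so the times overlapped.

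The arrays placed in no group gave these values. On the array whose title has no genotype, labelled LPS 45 min, Slc20a1 read 3085, Slc31a1 2278, Slc44a1 371, Slc27a1 1032 and Slc7a7 1304. On the IL-6-/- array whose title says 45 min and whose protocol says 180 min, Slc20a1 read 330, Slc31a1 5494, Slc44a1 741, Slc27a1 408 and Slc7a7 1579.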
